A study of Mus musculus with 24 samples.

Results

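Oxidative phosphorylation (OXPHOS) genes of the nuclear genome are followed here through the mouse maternal-to-zygotic transition (MZT) and after knockdown (KD) of Ythdc1, the nuclear reader of the mRNA mark N6-methyladenosine (m6A). The members are the protein-coding genes whose symbols begin with Nduf, Uqcr, Cox4 to Cox8 or Atp5, together with Sdha, Sdhb, Sdhc and Sdhd. By this rule 94 genes of 21974 protein-coding and 55471 annotated genes were taken. They comprise 36 genes of complex I, 4 of complex II, 8 of complex III, 20 of complex IV, 17 of complex V and 9 assembly factors. The rule uses symbols and no measured value, but it was set with earlier results of these data known.

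In the mitochondrial inner membrane, complex I passes electrons from NADH, and complex II from succinate, to ubiquinone. Complex III hands them to cytochrome c, complex IV to oxygen, and complex V, the ATP synthase, makes ATP from the proton gradient that complexes I, III and IV build. Most subunits are encoded in the nucleus, and a few, which include the most hydrophobic ones, in mitochondrial DNA, except for complex II, whose subunits are all nuclear. Oocytes carry a large maternal stock of mitochondria, and the early embryo relies on them before it makes its own.

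SLIM-seq, an antibody pull-down of m6A-bearing RNA for low input, was performed on MII oocytes, late 1-cell (L1C) embryos and late 2-cell (L2C) embryos, each with 3 immunoprecipitated (IP) libraries and 3 inputs without the pull-down. Oocytes came from superovulated 8-week-old wild-type B6D2F1 females, and embryos from such females mated with B6D2F1 males. A second experiment compared L2C embryos that had received Cas13d mRNA together with Ythdc1-targeting crRNAs as zygotes (KD, 3 libraries) with embryos injected with Cas13d mRNA alone (NC, 3 libraries). The controls thus carry Cas13d but no crRNA. The sources used here do not say whether libraries of a group came from separate collections, so p-values measure the spread between these libraries.

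Totals ranged from 11107175 to 39739640 estimated counts in the 18 SLIM-seq libraries, and members held 0.203% to 0.468% of them. The KD counts were on exons, with 8696476 to 14500548 counts in the 5 libraries that cover the whole annotation, and the values of KD replicate 3 end on chromosome 7, as does the merged count table of all 6 KD libraries. Of the members, 39 are in that table and 55 lie beyond it, where 2 KD libraries were compared with 3 NC libraries. Ythdc1 itself was at 523, 541 and 519 CPM (the usual library-scaled unit of read counts) in KD and at 1080, 1100 and 994 CPM in NC. Oocyte markers (12 genes) summed to 37300 to 41400 CPM in MII inputs and to 4100 to 5370 CPM in L2C inputs, and 2-cell markers (11 genes) to 35.9 to 43.7 CPM and 484 to 647 CPM, in the order of the labelled stages. Cumulus cell markers (14 genes) summed to 50.3 to 63.0 CPM at MII, 38.9 to 44.1 CPM at L1C and 7.32 to 8.41 CPM at L2C, and their part in the changes below was not tested. CPM are shares of a library after TMM scaling, so that fewer cells of a type, or less RNA per cell, cannot be told apart.

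Stretches of promoter are shown because 7 members carry the palindrome that stands in capitals in the windows shown, the core of the binding site of NRF1, a transcription factor known for its place in the regulation of respiratory genes. The RefSeq promoters of build GRCm38.p6 used here, 250 bases before to 50 after a gene start, cover 75 of the 94 members (79.8%), too few for a comparison of the members with other genes. Among all 32851 promoters 0.971% hold the palindrome on either strand. The 7 windows of 30 bases are read 5′ to 3′ on the gene's strand.

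Atp5g2 (chr15:102671070-102671099, minus strand): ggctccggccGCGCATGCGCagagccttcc
Atp5k (chr5:108434430-108434459, minus strand): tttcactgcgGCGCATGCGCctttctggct
Cox6a1 (chr5:115349101-115349130, minus strand): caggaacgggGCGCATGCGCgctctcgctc
Ndufa11 (chr17:56717692-56717721, plus strand): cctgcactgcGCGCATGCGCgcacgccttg
Ndufaf4 (chr4:24897960-24897989, plus strand): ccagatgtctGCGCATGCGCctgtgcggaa
Ndufaf5 (chr2:140170652-140170681, plus strand): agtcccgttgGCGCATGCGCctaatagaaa
Uqcrc1 (chr9:108936668-108936697, plus strand): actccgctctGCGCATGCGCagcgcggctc

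Input RNA of these 7 genes did not move one way. From L1C to L2C it rose for Atp5k, Cox6a1, Ndufa11, Ndufaf5 and Uqcrc1, and fell for Ndufaf4 and Atp5g2, the latter without a call when L2C input 2 (log2 change -1.21) or L2C input 3 (-1.53) was left out. Other motifs were searched on both strands. CCGGAAG, a site of ETS factors, was found for 18 of 74 member symbols (8.86% of all promoters), and the YY1 motif for 5 (0.633%). A symbol counts if any of its promoters matches. The percentages are of single promoters, as for the palindrome, so no comparison is drawn from them. None of the 3 motifs contains another. A match is a description of letters and not a test of binding.

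The first comparison asks how the stored and newly made OXPHOS RNA of the embryo changes between stages. Summed over all members, inputs held 3700 ± 149 CPM at MII, 2490 ± 116 CPM at L1C and 3160 ± 131 CPM at L2C (SD, n = 3 each). The stages did not overlap, and each exact two-sided permutation test gave p = 0.1, the smallest value that 3 against 3 libraries allow. These CPM, like all those printed for inputs and IP, rest on TMM scaling of the 18 libraries together. The fall to L1C and the rise to L2C were also seen with TMM of the 9 inputs alone (3070, 2190 and 3290 CPM) and with library size (2930, 2170 and 3470 CPM), but the order of MII and L2C turned. L2C was 0.854 of MII with the joint scaling, 1.07 of it, with overlap, with the inputs alone, and 1.18 of it by library size, so no direction between MII and L2C is drawn from the sum. The genes that make up the sum were exchanged. At MII, 6 genes held 63.3% of it (Atp5b, Sdha, Atp5a1, Ndufa10, Uqcrc2 and Ndufaf4), and at L2C the leading 6 held 35.4%, with Cox8a, Cox4i1, Uqcrc1 and Ndufs8 in the place of Sdha, Ndufa10, Uqcrc2 and Ndufaf4. Members at 10 CPM or more numbered 43 at MII, 38 at L1C and 57 at L2C.

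Gene by gene, 91 members passed the filter on low counts. Changes of input RNA and their tests come from a fit of the 9 inputs alone, so a log2 change lies above the ratio of the printed CPM by 0.09 from MII to L1C, 0.24 from L1C to L2C and 0.33 from MII to L2C. Scaling by library size moved the median of all genes further, from 0.16 to 0.21, from 0.17 to 0.26 and from 0.40 to 0.54, and called 18 higher and 28 lower, 64 and 18, and 60 and 20 members. From MII to L1C, 18 rose and 31 fell at an adjusted p under 0.05 (edgeR, Benjamini-Hochberg over all genes tested), beside 31.9% and 24.3% of all 19903 genes tested and 31.5% and 27.6% of the protein-coding ones. The median log2 change was -0.16 for the members and 0.16 for all genes. From L1C to L2C, 62 members rose and 18 fell, beside 44.1% and 38.8% of all genes (44.2% and 39.3% of protein-coding genes), with medians of 1.57 and 0.17. Over both steps together 58 were higher and 24 lower at L2C, beside 47.5% and 37.1% of all genes (46.8% and 38.3% of protein-coding genes), with medians of 1.40 and 0.40.

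**Figure D1:**
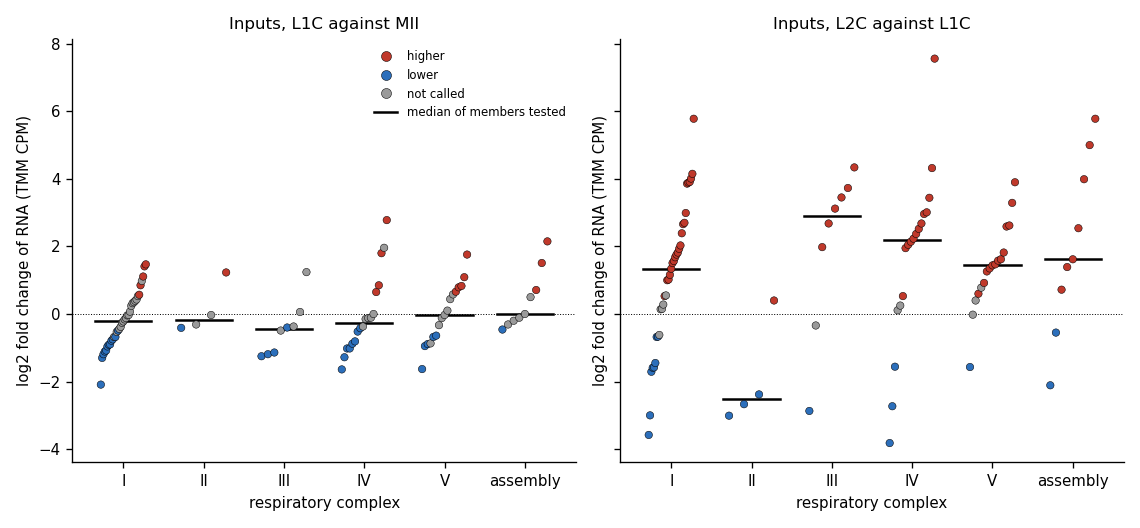
Log2 fold change of input RNA of each tested member by complex, L1C against MII (left) and L2C against L1C (right), with 3 libraries a stage; points are genes, red and blue mark calls at an adjusted p under 0.05, and bars are medians. At L2C the members of complex II lie mostly below 0 (median -2.52) and those of complexes III and IV mostly above (medians 2.90 and 2.18); the highest point of complex IV is Cox7b2, which was at 0 in every L1C input.

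Complex II fell, with 3 of 4 genes lower and 1 higher from L1C to L2C, and its difference from the other complexes was not tested. It summed to 596 ± 116 CPM at MII, 481 ± 49.3 CPM at L1C and 73.5 ± 0.412 CPM at L2C, a 6.55-fold drop between the embryo stages (0.153 of L1C, and 0.193 by library size). Sdha, the flavoprotein that oxidises succinate, was at 606, 424 and 393 CPM in MII inputs, 347, 290 and 373 CPM at L1C, and 35.4, 33.8 and 37.0 CPM at L2C. Its L2C libraries stood far below both other stages (L2C against L1C, log2 change -3.01, SE 0.17, adjusted p = 4.7e-10). The membrane anchor Sdhc, at 52.4, 67.5 and 78.0 CPM at L1C, fell to 10.9, 12.6 and 8.75 CPM at L2C (-2.38, SE 0.18, adjusted p = 1.7e-08). Sdhd, the other anchor, first rose from 28.7, 28.6 and 25.9 CPM to 55.8, 64.2 and 64.6 CPM (1.23, SE 0.15, adjusted p = 1.3e-05). It then fell to 8.99, 6.36 and 9.12 CPM (-2.67, SE 0.16, adjusted p = 1.3e-09). Sdhb, the iron-sulphur subunit, lay between 16.1 and 23.4 CPM in all 9 inputs. In these CPM its L2C libraries overlapped those at L1C (log2 change of the fit of inputs 0.40, SE 0.15, adjusted p = 0.022), and the call was lost without L1C input 1 (0.34), L1C input 2 (0.35) or L2C input 2 (0.31).

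Complex I held genes that moved to both extremes. Of 35 tested, 22 rose and 8 fell from L1C to L2C (median 1.34). Ndufa10, an accessory subunit of the membrane arm, was among the most abundant members at MII with 456, 356 and 341 CPM. It was at 189, 180 and 212 CPM at L1C and at 11.9, 14.6 and 14.7 CPM at L2C, and no 2 stages overlapped (L2C against L1C -3.58, SE 0.15, adjusted p = 4.0e-11). Ndufa8, also accessory, rose from 12.2, 17.3 and 17.4 CPM to 30.8, 50.4 and 40.9 CPM and then fell to 3.86, 4.47 and 4.56 CPM (-3.0, SE 0.22, adjusted p = 9.8e-09). Ndufs4, an accessory subunit whose loss in mice is a model of Leigh syndrome, fell at L2C as well, to 2.78, 3.20 and 3.06 CPM from 13.3, 10.1 and 11.6 CPM (-1.71, SE 0.18, adjusted p = 5.9e-07).

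Of the 7 core subunits of complex I, which carry the electron path, 7 rose and 0 fell from L1C to L2C, and of 28 accessory subunits tested 15 rose and 8 fell; the difference was not tested. Ndufs8, a core iron-sulphur subunit, was at 4.27, 4.13 and 3.82 CPM at MII, 8.52, 11.7 and 10.5 CPM at L1C, and 120, 137 and 120 CPM at L2C. It is one of the members that rose in both steps (1.41, SE 0.16, adjusted p = 6.5e-06, and 3.86, SE 0.15, adjusted p = 2.1e-11). Ndufs7, which holds the last iron-sulphur cluster before ubiquinone, rose to 24.5, 23.0 and 27.1 CPM from 3.20, 6.44 and 4.36 CPM (2.66, SE 0.23, adjusted p = 7.3e-08). The NADH-binding subunit Ndufv1 rose to 30.1, 36.5 and 29.9 CPM from 8.04, 6.38 and 7.33 CPM (2.39, SE 0.18, adjusted p = 1.3e-08). The accessory subunit Ndufc1 had the largest rise of complex I, to 8.31, 8.52 and 9.07 CPM from 0.0969, 0.0528 and 0.424 CPM, where the L1C values are near the level of single counts.

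Complex III was split within its matrix arm. Uqcrc1 and Uqcrc2, its matrix-facing proteins, carry no redox centre and are counted here as accessory. They stand next to each other in the complex, yet their RNAs crossed in the inputs. Uqcrc2 was at 382, 316 and 346 CPM at MII, 150, 122 and 142 CPM at L1C, and 13.9, 15.3 and 18.4 CPM at L2C (L2C against L1C -2.87, SE 0.14, adjusted p = 1.8e-10). Uqcrc1 was at 11.3, 9.89 and 12.0 CPM, then 5.33, 6.60 and 10.4 CPM, then 117, 140 and 125 CPM (4.34, SE 0.22, adjusted p = 2.1e-10). In NC embryos at L2C, counted on exons, Uqcrc1 was at 17.2 CPM and Uqcrc2 at 13.6 CPM. That gap is far smaller than the 127 and 15.9 CPM of the L2C inputs. Uqcrfs1, the Rieske iron-sulphur protein, rose to 77.1, 72.9 and 90.1 CPM from 9.54, 11.1 and 12.1 CPM (3.12, SE 0.15, adjusted p = 1.6e-10). Of the 8 genes 6 rose and 1 fell at L2C (median 2.90), and the complex summed to 413 ± 36.6 CPM at MII, 180 ± 9.87 CPM at L1C and 388 ± 20.3 CPM at L2C.

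**Figure D2:**
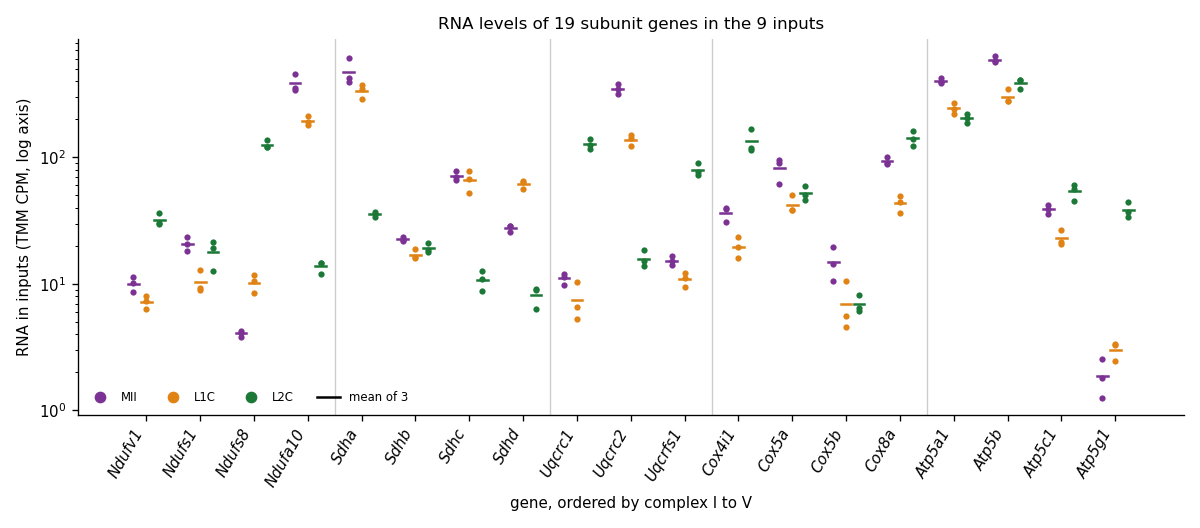
TMM-scaled CPM (log axis) of 19 subunit genes in each of the 9 inputs, ordered by complex I to V; points are libraries of MII (purple), L1C (orange) and L2C (green) and bars are means of 3. Sdha, Ndufa10 and Uqcrc2 start above 300 CPM at MII and end below 40 CPM at L2C, where Ndufs8 and Uqcrc1 stand above 100 CPM.

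In complex IV, cytochrome c oxidase, most genes rose. From L1C to L2C 13 of 18 tested genes rose and 3 fell (median 2.18), and the sum went from 310 ± 43.6 to 663 ± 39.4 CPM. Cox4i1 was at 30.6, 39.7 and 39.2 CPM at MII, 16.0, 19.5 and 23.4 CPM at L1C, and 115, 167 and 119 CPM at L2C (3.01, SE 0.20, adjusted p = 3.2e-09). Cox8a, the ubiquitous form of the smallest subunit, followed the same down and up course with 101, 89.8 and 89.4 CPM, then 36.5, 49.3 and 44.5 CPM, then 124, 139 and 163 CPM (1.95, SE 0.15, adjusted p = 1.3e-08). Cox7b climbed in both steps, from 1.90, 1.44 and 2.01 CPM through 6.93, 5.43 and 5.21 CPM to 26.1, 17.6 and 26.2 CPM. Cox7a2l, known as a factor that joins complexes III and IV into supercomplexes, went up to 85.6, 110 and 104 CPM at L1C and down to 26.9, 29.5 and 29.7 CPM at L2C (-1.56, SE 0.13, adjusted p = 5.2e-08).

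Isoforms of complex IV subunits known from muscle or testis differed in their timing. Cox6b2, the testis form of Cox6b, made up 84.7 ± 5.70% of the Cox6b1 and Cox6b2 RNA at MII, 66.5 ± 5.28% at L1C and 65.7 ± 1.44% at L2C, on the scale of CPM per kb of exon. Cox6a2, a muscle form, made up 9.79 ± 1.55% of the Cox6a1 and Cox6a2 RNA at MII, 21.8 ± 2.26% at L1C and 0.732 ± 0.235% at L2C. Cox7b2, another testis form, was at 0 in all 6 MII and L1C inputs and at 0.785, 1.13 and 0.931 CPM at L2C. A count of 0 allows up to 0.201 CPM at MII and 0.182 CPM at L1C (3 counts of a library, counting error only). Cox8b was at 0 in all inputs.

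Genes of complex V, the ATP synthase, took different courses. The catalytic head subunits Atp5b and Atp5a1 were the leading members at L2C. Atp5a1 was at 390, 396 and 425 CPM at MII, 222, 243 and 269 CPM at L1C and 187, 220 and 204 CPM at L2C, with no overlap in these CPM between L1C and L2C, but with no call in the fit of inputs (-0.02, SE 0.12, adjusted p = 0.86). Atp5c1, the central stalk, rose from 26.8, 21.6 and 20.6 CPM at L1C to 56.2, 45.5 and 60.5 CPM (1.47, SE 0.15, adjusted p = 4.3e-07). Atp5g1, Atp5g2 and Atp5g3 encode the same mature c-ring subunit and did not share a course. Atp5g1 went from 3.34, 2.48 and 3.27 CPM at L1C to 33.5, 44.7 and 36.8 CPM at L2C (3.90, SE 0.23, adjusted p = 1.1e-09). Atp5g3 went from 3.58, 2.59 and 2.97 CPM to 7.19, 6.72 and 9.19 CPM (1.58, SE 0.22, adjusted p = 1.1e-05). Atp5g2 was below 1 CPM in all 9 inputs. In all, 13 of 17 genes rose and 1 fell at L2C (median 1.44).

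Assembly factors mostly rose, some of them steeply. Ndufaf1, needed to build the membrane arm of complex I, was at 0.211, 0.180 and 0.335 CPM at MII, 0.533, 0.158 and 0.242 CPM at L1C, and 15.5, 12.1 and 17.6 CPM at L2C (L2C against L1C 5.78, SE 0.34, adjusted p = 7.9e-10). Ndufaf5, which hydroxylates Ndufs7, rose to 18.5, 15.1 and 20.5 CPM from 0.726, 0.580 and 0.666 CPM (5.00, SE 0.27, adjusted p = 3.9e-10). Atp5s, coupling factor B, rose in both steps (1.51, SE 0.28, adjusted p = 0.00036, and 3.99, SE 0.21, adjusted p = 2.6e-10). Ndufaf3 and Ndufaf4, which work as a pair, parted. Ndufaf3 rose to 5.04, 5.96 and 5.75 CPM and then to 7.68, 7.85 and 7.79 CPM. Ndufaf4 rose to 244, 207 and 189 CPM at L1C and fell to 51.4, 35.9 and 38.5 CPM (-2.11, SE 0.17, adjusted p = 2.9e-08). Of 9 factors 7 rose and 2 fell at L2C, while their sum went from 327 ± 21.1 to 254 ± 13.8 CPM without overlap (0.778 of L1C). With TMM of the inputs alone it was 0.919 of L1C and by library size 0.98, both with overlap.

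Genes of the same pathway outside the rule were counted in the same fit. All 13 mRNAs of mitochondrial DNA rose from L1C to L2C (median 1.59). Of 44 tested assembly factors with other names, 22 rose and 18 fell (median 0.55), near the 44.1% and 38.8% of all genes. Of 9 mobile carriers and further chain genes 4 rose and 2 fell (median 0.73), and of 18 regulators of mitochondrial biogenesis 11 rose and 4 fell (median 1.70). Over the same step 11 of 12 oocyte markers fell, 10 of 11 2-cell markers rose, and 5 of 7 tested cumulus markers fell.

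Levels at L2C differed between the experiments. Estimated counts were made on whole gene spans with introns, and NC embryos of the other experiment, counted on exons, give a second reading at L2C, in embryos that were injected, so that counting and experiment cannot be told apart. The 2 readings were within 4-fold for 55 members, beside 63.7% of 14039 protein-coding genes. The median log2 ratio of the L2C input reading to NC was -1.36 for all members and 0.32 for these protein-coding genes. The L2C input reading was lower by more for 34 members, and higher by more for 5, namely Ndufa8, Ndufv1, Sdhd, Uqcrc1 and the longer Atp5o gene. The median log2 ratio was -2.86 for the 16 members with a similar copy elsewhere in the genome and -0.90 for the 78 without one, and 10 of the former and 24 of the latter were lower by more than 4-fold. For 15 members, fewer than 50% of their 31-base words were theirs alone, among them Cox4i1, Ndufa13 and Cox6a2 with 0.00%, Uqcrb with 13.3% and Ndufs1 with 36.3%. Besides these, Cox8a, Cox7a2l, Cox6a1, Cox7c, Ndufa12, Ndufs6 and Ndufs5 are among the 16 with a copy, so that their levels are uncertain. An overlap with another annotated gene was found for 41 members, and strand is not known to have been used.

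The second comparison asks which OXPHOS RNAs the m6A antibody pulled down. It tested 92 members as IP against input within a stage. At MII, 39 were enriched and 5 depleted, beside 17.7% and 21.0% of all 21950 genes (18.6% and 25.6% of protein-coding genes). At L1C, 38 were enriched and 2 depleted, beside 15.8% and 18.2% (16.0% and 22.4%). At L2C, 26 were enriched and 8 depleted, beside 22.0% and 22.0% (21.6% and 26.6%). Scaling by library size in place of TMM gave 54 and 3, 62 and 1, and 47 and 3, and moved the median of all genes from 0.00 to 0.20, from 0.07 to 0.37 and from 0.09 to 0.34. Member medians under TMM were 0.52, 0.54 and 0.24.

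By a call close to that of the methods (IP above input at an unadjusted p under 0.05 in edgeR, with more than 1 count in each input of the stage), 46 members carried the tag in MII oocytes, 46 in L1C and 34 in L2C embryos. Of all genes 19.5%, 18.9% and 24.3% did, and of protein-coding genes 20.7%, 19.5% and 24%. The methods used DESeq2, which gave 50, 49 and 32 members here, and also a rule for missing p-values and one on replicates that were not applied. The tag was present at all 3 stages for 26 members and at 1 or more for 60, which is 28.3% and 65.2% of the 92 tested, beside 8.84% and 37.3% of 16163 protein-coding genes. By complex, tagged genes at MII numbered 19 of 36 in complex I, 3 of 4 in II, 3 of 8 in III, 11 of 20 in IV, 5 of 17 in V and 5 of 9 assembly factors. At L2C they numbered 10, 0, 3, 9, 7 and 5.

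**Figure D3:**
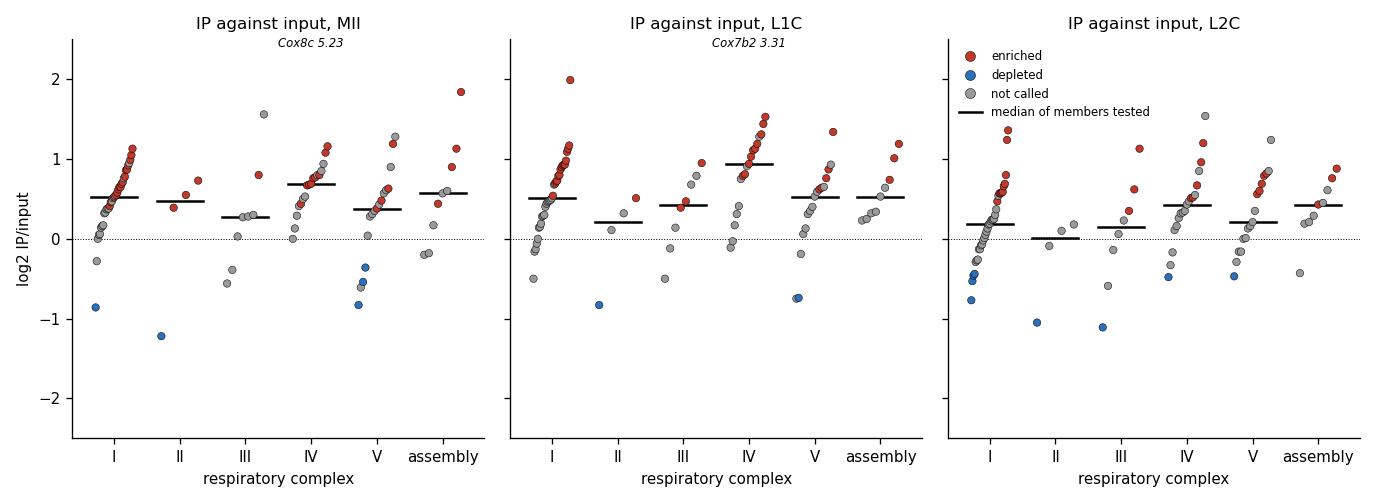
Log2 IP/input of each tested member by complex at MII, L1C and L2C (3 IP and 3 input libraries each); points are genes, red marks enriched and blue depleted genes at an adjusted p under 0.05, bars are medians, and 2 genes above the axis are printed with their values. Most members lie above 0 at MII and L1C (medians 0.52 and 0.54) and nearer to it at L2C (0.24), and Sdha, in complex II, lies below 0 at each stage (-1.22, -0.83 and -1.05).

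Several small subunits were pulled down at more than one stage. Cox8a was at 196, 229 and 168 CPM in IP against 101, 89.8 and 89.4 CPM in input at MII (1.08, SE 0.15, adjusted p = 1.4e-05), and at 113, 111 and 153 against 36.5, 49.3 and 44.5 CPM at L1C (1.53, SE 0.16, adjusted p = 4.6e-07). Ndufs4 was enriched at every stage, by 0.99 (SE 0.15), 1.13 (SE 0.15) and 1.36 (SE 0.16), the last at 7.65, 9.15 and 6.52 CPM in IP against 2.78, 3.20 and 3.06 CPM in input. Ndufa4, a subunit of complex IV despite its name, was enriched by 0.77 (SE 0.12), 1.13 (SE 0.12) and 0.96 (SE 0.12). For each of these stages the IP and input libraries did not overlap. Atp5g3 (1.19, 1.34 and 0.82), Ndufb3 (1.05, 0.93 and 1.24) and the assembly factor Ndufaf4 (1.13, 1.01 and 0.88) were enriched at all 3 stages too.

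Depletion was seen for fewer genes, Sdha first among them. Sdha was at 186, 263 and 162 CPM in IP against 606, 424 and 393 CPM in input at MII (-1.22, SE 0.19, adjusted p = 3.8e-05). The same held at L1C (-0.83, SE 0.19, adjusted p = 0.0019) and at L2C (-1.05, SE 0.20, adjusted p = 0.00026), which no other member shared. Atp5a1 was depleted at MII (-0.54, SE 0.10, adjusted p = 0.00024) and at L2C (-0.47, SE 0.10, adjusted p = 0.00097), where library size gave -0.21 and no call. Ndufs1, the largest core subunit of complex I, was at 13.3, 9.91 and 11.3 CPM in IP against 18.2, 23.6 and 20.5 CPM at MII (-0.86, SE 0.19, adjusted p = 0.0015). Uqcrc1 was at 71.3, 43.5 and 61.1 CPM in IP against 117, 140 and 125 CPM at L2C (-1.11, SE 0.21, adjusted p = 0.00038), and Ndufv1 at 21.2, 15.3 and 19.8 against 30.1, 36.5 and 29.9 CPM (-0.77, SE 0.17, adjusted p = 0.00095). Core subunits as a class had 7 enriched and 5 depleted of 20 at MII, and accessory subunits 25 and 0 of 55. The 5 are near the 21.0% of all genes, and 3 were left without MII IP 3, MII input 1 or MII input 3, with Atp5b and Atp5g1 lost. The L1C counts were 6 and 2 for core and 27 and 0 for accessory subunits. In L2C embryos they were 4 and 3 for core and 19 and 4 for accessory subunits, and the difference between the classes was not tested.

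Members have short mRNAs, with a median of 870 bases against 2989 for protein-coding genes tested. GGACT, a common form of the m6A motif, was absent from 34.0% of member mRNAs and from 8.88% of those of all protein-coding genes tested, while its density was 0.961 and 1.05 per kb. With this density log2 IP/input had a Spearman's rho of -0.11, -0.09 and 0.04 at the 3 stages across members and of -0.07, -0.08 and -0.13 across protein-coding genes. Across members, which are not independent, log2 IP/input had a Spearman's rho of -0.22, -0.34 and -0.18 with mRNA length at the 3 stages, and of -0.21, -0.26 and -0.07 across protein-coding genes. The 13 mitochondrial mRNAs were enriched in 12, 13 and 12 cases (medians 1.74, 1.86 and 1.64). At MII the other lists had 19 enriched and 6 depleted of 44 further assembly factors, 2 and 2 of 9 carriers, 3 and 7 of 18 regulators, 3 and 3 of 12 oocyte markers, 4 and 0 of 11 2-cell markers, and 2 and 3 of 8 cumulus markers, beside the 17.7% and 21.0% of all genes.

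Change of the pull-down itself between stages was tested as the difference of IP/input. From MII to L1C no member was higher and 1 lower, beside 3.13% and 4.21% of all genes (3.81% and 5.03% of protein-coding genes), and 6 passed an unadjusted p under 0.05. From L1C to L2C none was higher and 7 lower, beside 5.00% and 4.47% (6.09% and 5.41%), with 15 at the unadjusted p. The 7 went to 3 without L1C IP 3, L1C input 1, L2C IP 3, or L2C input 2 or 3, to 4 without L2C input 1, and to 11 when only the stages compared were fitted. From MII to L2C 1 was higher and 11 lower, beside 11.1% and 9.21% (13.5% and 10.9%), with 21, and the fit of the stages compared gave 0 and 20. DESeq2 called 2 lower in the first of these steps. The accessory subunit Ndufv3 was lower in both steps that start at MII. Its IP libraries were at 6.17, 5.14 and 5.61 CPM against inputs at 2.16, 2.76 and 2.82 CPM at MII, and at 11.9, 14.6 and 13.8 CPM against 19.3, 18.6 and 16.5 CPM at L2C (difference -1.57, SE 0.25, adjusted p = 0.00021). Cox8a fell in IP/input by 1.20 (SE 0.22, adjusted p = 0.002) and Ndufa13 by 1.07 (SE 0.17, adjusted p = 0.00088) on the log2 scale from L1C to L2C, while the input RNA of both rose.

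The third comparison asks what OXPHOS RNA did when Ythdc1 was knocked down. Over both sets of KD counts 60 members were higher, 9 lower, 20 not called and 5 too low to test. Of the 39 members in the merged table, 26 were higher and 6 lower, beside 33.5% and 37.4% of 7433 genes and 35.6% and 36.5% of the protein-coding ones (median 0.57 against -0.06). Beyond it 34 of 50 tested were higher and 3 lower, beside 30.4% and 36.4% of 9321 genes and 33.3% and 34.7% of the protein-coding ones (median 0.57 against -0.09). Scaling by library size moved the first all-gene median to -0.19 and left 22 higher and 7 lower. The thresholds of the study's call (unadjusted p under 0.05 and a log2 change over 1 in size) were also applied to the edgeR fit. The study itself used DESeq2. These thresholds gave 6 higher and 0 lower in the table (14.7% and 22.5% of all genes, 13.8% and 19.6% of protein-coding genes). Beyond it they gave 16 higher and 1 lower (14.1% and 24.6%, 13.7% and 20.9%). The members summed to 10500 and 11500 CPM in the 2 whole KD libraries and to 7800, 7870 and 8780 CPM in NC, 1.35-fold more, with no overlap.

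Counts by complex stand beside 33.5% higher and 37.4% lower of all genes in the merged table, and 30.4% and 36.4% beyond it. Complex I had 21 higher and 4 lower of 36 tested, complex II 2 and 0 of 4, complex III 7 and 0 of 8, complex IV 12 and 3 of 16, complex V 13 and 0 of 16, and the assembly factors 5 and 2 of 9. The sum of the assembly factors was 1.09-fold that of NC. Core subunits had 15 higher and 0 lower of 20 (median 0.69), and accessory subunits 36 and 6 of 55 (0.57). Differences between the complexes and between the classes were not tested, and some of these groups are small. CPM below are scaled to the counts of the merged table for genes in it and to the whole annotation for the others, so that only libraries of the same gene are compared.

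**Figure D4:**
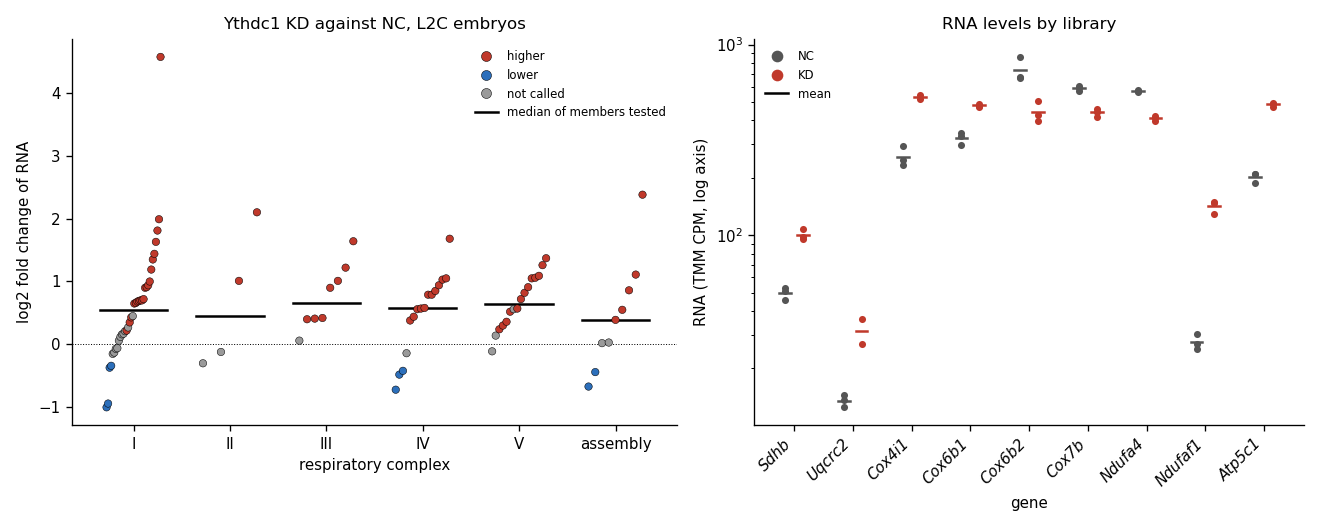
Left, log2 fold change of KD against NC for each tested member by complex, with calls at an adjusted p under 0.05 in red (higher) and blue (lower) and medians as bars; right, CPM (log axis) of 9 genes in each library, where Uqcrc2 and Cox4i1 are scaled to the whole annotation (2 KD libraries) and the others to the merged table. Of 89 tested members 60 are red and 9 blue, and Cox6b2, Cox7b and Ndufa4 have KD libraries below those of NC.

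In complex I the core genes Ndufs7 and Ndufv1 were at 20 and 30.8 CPM against 7.59, 6.66 and 10.7 CPM, and at 10.5 and 10.8 CPM against 4.03, 3.37 and 4.43 CPM. The changes were 1.63 (SE 0.21, adjusted p = 5.3e-06) and 1.44 (SE 0.22, adjusted p = 2.9e-05). Ndufa12, an accessory subunit, was at 65.7 and 66.0 CPM against 16.1, 15.8 and 18.2 CPM (1.99, SE 0.11, adjusted p = 1.0e-09). Ndufa8 was close to absent in controls, with 0.710, 1.99 and 0.00 CPM, and at 22.0, 25.6 and 24.4 CPM in KD (adjusted p = 9.5e-09). Scaled to the whole annotation, Ndufa8 was at 0.346 CPM in NC, counted on exons. In the L2C inputs of the other experiment, counted on gene spans, it stood at 3.86 to 4.56 CPM. Ndufa3 (-0.94, SE 0.21) and Ndufs6 (-1.0, SE 0.24) were the most reduced.

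In complex II, Sdhb rose beyond its spread, from 45.9, 52.8 and 50.7 CPM to 95.1, 97.4 and 108 CPM (1.01, SE 0.11, adjusted p = 1.2e-07), and Sdhd rose to 6.01 and 7.49 CPM from 1.91, 1.38 and 1.33 CPM (2.10, SE 0.30, adjusted p = 1.8e-05). The other complex II genes were not called (Sdha -0.30, SE 0.14, adjusted p = 0.071, and Sdhc -0.12, SE 0.25, adjusted p = 0.68). Both matrix-arm proteins of complex III, which had crossed between stages in the inputs, were higher. Uqcrc2 was at 36.4 and 26.8 CPM against 14.5, 13.7 and 12.5 CPM (1.22, SE 0.15, adjusted p = 3.2e-06), and Uqcrc1 at 31.9 and 37.0 CPM against 16.1, 15.5 and 20.1 CPM (1.01, SE 0.14, adjusted p = 9.7e-06). The small subunit Uqcrb rose by 1.64 (SE 0.11, adjusted p = 7.7e-09) on the log2 scale.

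Complex IV held both directions. Cox7c was at 180 and 199 CPM against 54.1, 59.5 and 64.5 CPM (1.68, SE 0.10, adjusted p = 1.5e-09), and Cox4i1 at 517 and 544 CPM against 247, 232 and 292 CPM (1.05, SE 0.09, adjusted p = 9.4e-08). Cox6b2 fell to 398, 508 and 428 CPM from 676, 670 and 861 CPM (-0.72, SE 0.10, adjusted p = 2.0e-06), while its partner Cox6b1 rose to 490, 470 and 477 CPM from 296, 332 and 344 CPM (0.57, SE 0.07, adjusted p = 9.8e-07). The Cox6b2 share of the pair, per kb of exon, was 34.2%, 40.8% and 36.5% in KD and 59.4%, 56.3% and 61.5% in NC. These do not overlap, and the exact permutation test gives p = 0.1, its smallest value for 3 against 3. Cox7b (-0.42, SE 0.06, adjusted p = 1.2e-05) and Ndufa4 (-0.48, SE 0.06, adjusted p = 1.8e-06) were lower as well.

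In complex V the central stalk gene Atp5c1 rose from 209, 210 and 187 CPM to 490, 496 and 469 CPM (1.26, SE 0.07, adjusted p = 3.9e-11), and Atp5a1 from 105, 95.6 and 115 CPM to 186 and 186 CPM (0.82, SE 0.09, adjusted p = 1.4e-06). Atp5b was not called (0.14, SE 0.07, adjusted p = 0.098). Among assembly factors Ndufaf1 went from 26.8, 25.3 and 30.4 CPM to 148, 129 and 150 CPM (2.38, SE 0.11, adjusted p = 4.0e-12), and Ndufaf7, a complex I assembly factor, to 115 and 102 CPM from 45.9, 52.4 and 52.7 CPM (1.11, SE 0.10, adjusted p = 1.7e-07). Ndufaf4 was lower, at 301, 277 and 283 CPM against 471, 480 and 417 CPM (-0.67, SE 0.07, adjusted p = 1.9e-07).

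Set beside the stages, of 61 members that rose from L1C to L2C and were tested here 46 were higher and 2 lower in KD (75.4% and 3.28%), beside 46.4% and 23.1% of 5900 protein-coding genes that rose. Of 16 members that fell 6 were higher and 3 lower (37.5% and 18.8%), beside 21.2% and 49.5% of 4637 genes. Of 34 members tagged at L2C 19 were higher and 6 lower (55.9% and 17.6%), beside 34.3% and 38.2% of 3264 tagged genes. Of 55 tested members without the tag 41 were higher and 3 lower (74.5% and 5.45%), beside 34.3% and 34.6% of 9486 genes. These are counts, and the differences between them were not tested.

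Other measures moved with the KD. Of 11 2-cell markers 10 were lower and 1 higher (summed 387 to 431 CPM against 1240 to 1320 CPM), and of 12 oocyte markers 9 were lower and 1 higher (1490 to 1580 against 5040 to 5180 CPM). Cumulus markers summed to 10.5 to 14.3 CPM in KD and 13.7 to 15.2 CPM in NC, with 7 and 6 of 14 genes at 0, and of 4 tested 2 were lower and 0 higher (median -1.23). Of 13 mitochondrial mRNAs 1 was higher and 3 lower (median -0.09), of 44 further assembly factors 23 and 10 (0.43), of 8 carriers 3 and 1 (0.02), and of 17 regulators 11 and 1 (0.37). Of all genes 33.5% were higher and 37.4% lower in the merged table, and 30.4% and 36.4% beyond it. The part of the listed genes in the members' rise was not tested.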

How the data were processed

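SLIM-seq values are estimated counts per gene that the authors made with kallisto after Trimmomatic, on targets that span whole genes, and that were rounded here to whole numbers. The TPM values that the authors deposited beside them were not used in any test. KD and NC values are counts on exons that the authors deposited from HISAT2 (GRCm38) and featureCounts, per library and in a merged table that ends on chromosome 7. Members and lists were chosen with earlier results of these data known. All genes were fitted with edgeR 4.0.16 in R 4.3.3 (TMM, filterByExpr, quasi-likelihood test, Benjamini-Hochberg adjustment over all genes tested), with inputs, IP with input, the merged table and the 5 whole KD libraries each in a fit of its own, and CPM of inputs and IP come from the joint fit of 18 libraries; the procedure was tested on simulated data. Genes named are core members, paralog sets, the member with the smallest p per complex, comparison and direction, and the members with the largest changes; Atp5k is named for its promoter. DESeq2 1.42.0, library-size scaling, no filter, omitted libraries and other alternatives were tried. Depth was 11107175 to 39739640 (SLIM-seq), 3276715 to 5463868 (merged table) and 8696476 to 14500548 counts (whole KD libraries), and intervals cover counting error only. Figures were drawn with matplotlib 3.10.9. The values of 1 member are not reported here.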

Additional observations from a re-analysis of the deposited data

Results flagged for a closer look

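The difference of log2 IP/input between stages, tested as an interaction across all genes (edgeR, adjusted p under 0.05), was called for 20 pairs of member and step. No explanation was tested.

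From MII to L1C, Ndufv3 was lower by -1.13 (SE 0.26, adjusted p = 0.01), and from MII to L2C by -1.57 (SE 0.25). The calls that held without any 1 library were these and, from L1C to L2C, Ndufa13 (-1.07), Cox8a (-1.20) and Cox7a2l (-0.65), and from MII to L2C Ndufa11 (-1.15), Ndufa13 (-0.94), Ndufs8 (-1.16) and Cox7a2l (-0.92). Ndufb7, named here after its values were seen, was at -0.84 from MII to L2C and was lost without MII input 3 (-0.76), L2C input 3 (-0.81) or L2C IP 1 (-0.78).

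The remaining calls were also lost when single libraries were left out. From L1C to L2C, Ndufa11 (-0.91) was lost without L1C IP 3 (-0.68), L1C input 1 (-0.70), L2C IP 2 or 3 (-0.85 and -0.88), or L2C input 1, 2 or 3 (-0.91, -0.95 and -0.90). Ndufs5 (-1.04) was lost without L1C IP 1 or 3 (-1.09 and -0.88), L1C input 1 or 3 (-0.97 and -1.01), L2C IP 1, 2 or 3 (-1.07, -0.93 and -1.15), or L2C input 2 or 3 (-0.95 and -1.07). Cox6c (-1.28) was lost without L1C IP 3 (-1.13), L1C input 1 or 3 (-1.14 and -1.19), L2C IP 1 or 3 (-1.26 and -1.16), or any L2C input (-1.24, -1.30 and -1.30). Cox6b2 (-1.01) was lost without L1C IP 1 or 3 (-1.07 and -0.73), L1C input 1 or 3 (-0.84 and -1.04), L2C IP 1 or 3 (-0.92 and -0.95), or any L2C input (-1.04, -0.99 and -1.0).

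From MII to L2C, Cox8a (-0.75) was lost without L2C IP 3 (-0.68), L2C input 3 (-0.65) or MII IP 2 (-0.64). Ndufv1 (-0.77) was lost without L2C IP 2 (-0.65), L2C input 2 (-0.68), MII IP 1 (-0.63), or MII input 1 or 2 (-0.68 and -0.78). Sdhb (-0.64) was lost without L2C input 2 (-0.57). Ndufaf6 (-1.23) was lost without L2C IP 3 (-1.18), L2C input 3 (-0.93), MII IP 1 (-1.20), or MII input 1 or 2 (-1.06 and -1.06). The only higher value, Ndufs1 (0.78), was lost without any L2C IP (0.79, 0.78 and 0.76), L2C input 1 or 2 (0.83 and 0.58), MII IP 2 or 3 (0.67 and 0.76), or MII input 2 or 3 (0.67 and 0.78). Cox8c (-5.55, SE 1.88) had all MII inputs at 0, so the value is no bound, and it was lost without any of 10 libraries (-5.82 to -5.25). These are L2C IP 1, 2 and 3, L2C input 1 and 3, MII IP 1 and 2, and MII input 1, 2 and 3.

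With the replicate number as a block, 6 of these calls were lost: Cox6c (-1.29) and Ndufs5 (-1.03) from L1C to L2C, and Ndufs1 (0.81), Ndufv1 (-0.77), Sdhb (-0.65) and Ndufaf6 (-1.25) from MII to L2C.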

How the results depend on the processing

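Of 436 alternative counts of called members 381 were within 1.5 times the reported count, and of 3682 alternatives for 308 calls of 66 named members 303 lost the call and 0 changed direction. Among members whose input level at L2C was within 4 times the exon counts, an alternative chosen after seeing the data that leaves 55 members, inputs gave 8 higher at L1C than MII, 40 higher and 11 lower at L2C than L1C, and 35 and 13 at L2C than MII. In the same set 28, 28 and 18 were tagged, 22 (L1C) and 14 (L2C) enriched, 1 depleted at L1C, 4 lower in IP/input from L1C to L2C, 14 higher and 1 lower in the KD table, and 18 higher beyond it. Library-size scaling gave 62 (L1C) and 47 (L2C) enriched, 3, 1 and 3 depleted, and 52 tagged at L2C. With no filter 4 were depleted at L1C. DESeq2 called 2 lower in IP/input from MII to L1C. With only the stages compared in the fit, 11 were lower from L1C to L2C and 20 from MII to L2C. The 1 higher from MII to L2C became 0 with no filter, the stages alone, the replicate block or members with at least 50% of their own words (chosen after seeing the data). Without members that have a copy elsewhere 4 were lower from L1C to L2C. The thresholds of the study's KD call, applied to the edgeR fit, gave 6 and 0 in the table and 16 and 1 beyond it. The cause of these moves was not tested, beyond the smaller number of members in the restricted sets.

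Leaving out 1 library gave 3 to 4 depleted at MII (3 without MII IP 3, MII input 1 or MII input 3), 1 to 2 depleted at L1C (1 without L1C IP 2 or L1C input 3), 1 to 2 lower in IP/input from MII to L1C (2 without MII input 3), 3 to 8 lower from L1C to L2C (3 without L1C IP 3, L1C input 1, L2C IP 3, L2C input 2 or 3, and 4 without L2C input 1), and 0 to 1 higher from MII to L2C. Same-numbered libraries did not deviate together (r from -0.15 to 0.16 over 21 pairs of libraries), although the methods take IP and input RNA from shared batches. No source used here ties a number to a batch. With the replicate block 17 of the 308 calls were lost and 0 members were higher in IP/input from MII to L2C. Members under about 1 CPM rest on few counts.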
